A study of Mus musculus with 20 samples.

Results

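Kruppel-like factors are transcription factors that bind GC-rich and CACCC-containing DNA through zinc fingers at the end of the protein, and 10 of them are described here in the mouse kidney: Klf2, Klf3, Klf4, Klf5, Klf6, Klf7, Klf9, Klf10, Klf13 and Klf15. They were chosen by gene name and not by their values, from 27827 gene names on the array, and they are read by 18 of its 41174 probes. All 10 passed the filter on dim genes in every comparison. Total kidney RNA of male C57BL/6 mice, 8 to 12 weeks old by the study's methods, was labelled with Cy3 and hybridised to Agilent one-colour arrays, with 4 arrays in each of 5 groups. Control mice had neither surgery nor drug. IRI mice had both renal pedicles clamped for 45 min under ketamine and xylazine and were killed after 6 h of reperfusion. IRI+Hemin mice received 25 mg/kg of Hemin, an inducer of heme oxygenase, 24 h before the same surgery. IPC+IRI mice had an earlier ischemia of 15 min, 7 days before the 45 min of ischemia by the study's methods. Hemin mice received the same dose without surgery, and the time from Hemin to their death is not given in the sources used here. No group had sham surgery, so anaesthesia and incision cannot be told apart from ischemia in any comparison with Control or with Hemin. The sources do not state that each array came from a separate mouse, and the p-values measure the spread between these arrays.

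Members of this family share the DNA-binding fingers and differ in the rest of the protein, so that some mostly activate genes and others recruit repressors. Several are induced within hours of injury or by growth factors (Klf4, Klf5, Klf6, Klf10), Klf2 and Klf4 are known from endothelium under flow, Klf9 and Klf15 are direct targets of the glucocorticoid receptor, and Klf15 is known in the kidney from podocytes. In whole-kidney RNA, fewer cells of a type and less RNA per cell cannot be told apart.

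Each value below is a log2 expression, the log2 of the probe intensity divided by the array's 75th percentile, so that 0 lies at that percentile. Levels of different genes come from different probes and are not compared with each other. A fold change was called at an adjusted p below 0.05 in a limma fit across all genes with Benjamini-Hochberg adjustment. The exact permutation test of 4 against 4 arrays gives 0.029 at the least, two-sided, and gave that value wherever 2 groups are said not to overlap. The 75th percentile ran from 147 to 358 intensity units, and 57.4% to 67.5% of the gene names of an array were well above background, a flag of the scanner software. The 4 arrays of a group filled 1 slide, which held no array of another group, so an effect of the slide cannot be told apart from one of the group, and only the slides of Control and IRI, and those of IPC+IRI and Hemin, were scanned on the same day as each other. Without scaling between arrays the median over all tested genes of the log2 fold change went from 0.06 to 0.62 in Hemin vs Control, from 0.09 to 0.41 in IPC+IRI vs IRI, from 0.08 to 0.45 in IRI+Hemin vs IRI and from −0.09 to 0.35 in IPC+IRI vs Control. The share of called genes that were higher then went from 51.3% to 94.7%, from 59.6% to 90.7%, from 59.2% to 91.3% and from 41.5% to 75.1% in the same comparisons. In IRI vs Control the median moved from −0.17 to −0.05 and that share from 33.5% to 36.8%.

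After IRI, 8 of the 10 factors rose, with Klf6 and Klf5 the furthest from Control, Klf15 fell, and Klf2 did not pass the test. The share of all 17725 genes tested that were called higher was 17.1%, and 33.9% were called lower. In the same 9 factors the 4 IRI arrays did not overlap the 4 Control arrays, against 14.8% of all genes not overlapping with IRI higher and 31.3% with IRI lower. The median log2 fold change was 1.40 over the 10 factors and −0.17 over all genes tested.

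**Figure D1:**
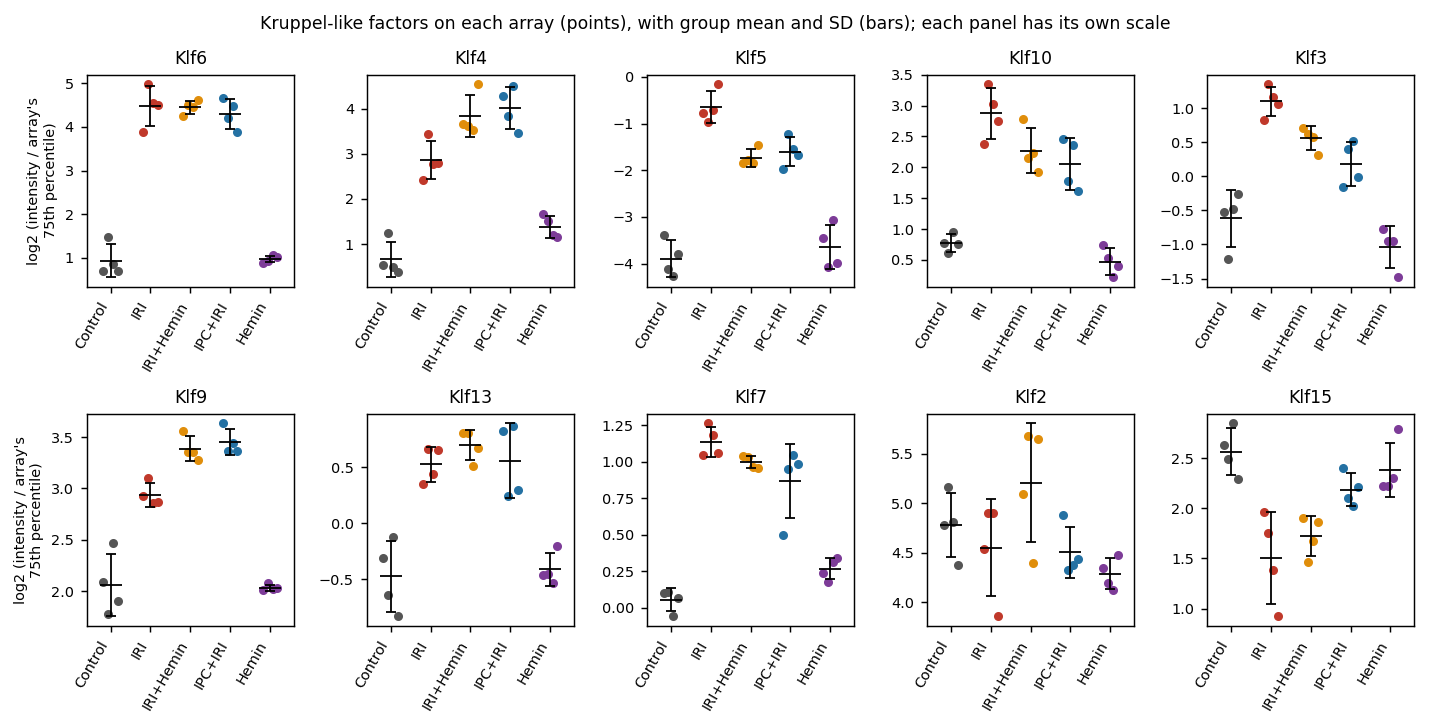
Log2 expression (log2 of intensity over the array's 75th percentile, y axis, a scale of its own in each panel) of the 10 factors on each of the 20 arrays (points), by group (x axis), with group mean and SD (bars, n = 4). Klf6 lies between 3.88 and 4.98 in the 3 groups with IRI and between 0.68 and 1.47 in Control and Hemin, and Klf15 is the factor with its lowest mean in IRI.

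Klf6, a zinc finger factor induced early in injured epithelium and stellate cells, read 0.69, 1.47, 0.86 and 0.68 on the Control arrays. The IRI arrays read 3.88, 4.98, 4.56 and 4.50. All 4 IRI arrays lay far above all 4 Control arrays, and Control replicate 2 was the highest of its group. The log2 fold change was 3.55 ± 0.21 (SE, 11.7-fold, adjusted p = 1.6e-09). Klf6 read 4.25, 4.50, 4.46 and 4.61 in IRI+Hemin and 4.67, 4.21, 4.49 and 3.88 in IPC+IRI. Of these 8 arrays, 7 fell within the range of the IRI arrays and IPC+IRI replicate 4 lay just below it. The differences from IRI were −0.02 ± 0.21 with Hemin and −0.17 ± 0.21 with IPC (adjusted p = 0.94 and 0.53), and IPC+IRI was 3.38 ± 0.21 above Control (10.4-fold, adjusted p = 4.2e-09). Hemin alone read 0.88, 0.93, 1.05 and 1.01, inside the Control range. With the same drug on both sides, IRI+Hemin was 3.49 ± 0.21 above Hemin (adjusted p = 4.2e-09). Both Klf6 probes, at chr13:5866706-5866765 and chr13:5869371-5869430 (mm9, plus strand), gave this rise, 3.32 and 3.64 in IRI vs Control.

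Klf4, a factor of epithelial and endothelial differentiation also known from reprogramming, read 0.54, 1.24, 0.48 and 0.39 in Control and 2.42, 3.45, 2.78 and 2.80 in IRI. It rose by 2.20 ± 0.27 (4.59-fold, adjusted p = 4.4e-06). Both protected groups went further. The arrays read 3.66, 3.62, 3.52 and 4.54 in IRI+Hemin and 4.28, 3.83, 4.50 and 3.46 in IPC+IRI, all of them above every IRI array, by a narrow margin for 3.46 against 3.45. IPC+IRI exceeded IRI by 1.16 ± 0.27 (2.23-fold, adjusted p = 0.0024) and IRI+Hemin exceeded it by 0.97 ± 0.27 (1.96-fold, adjusted p = 0.0075). Neither was called with SAM or with a fold cutoff of 3. The 2 comparisons share the IRI arrays, and each crosses slides and scan days. Hemin alone read 1.67, 1.52, 1.19 and 1.16, above 3 of the 4 Control arrays, and Control replicate 2 overlapped them. That difference of 0.72 ± 0.27 was called at an adjusted p of 0.047, and leaving out any 1 of the 8 arrays other than Control replicate 2 took the adjusted p to between 0.051 and 0.12 (without Control replicate 2 it was 0.014). It was 1.28 (adjusted p = 0.00032) without scaling between arrays. Klf4 has 1 probe, at chr4:55540833-55540892 (mm9, minus strand).

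The promoters of these 2 factors are shown because Klf4 and Klf6 rose most in IPC+IRI. The sequences are the 250 bases before the RefSeq start (build GRCm38.p6), and capitals mark the E-box CACGTG and the GC box GGGCGG on either strand. In Klf4 (chr4:55532476-55532725, minus strand) a GC box overlaps the next by one base, and Klf6 lies at chr13:5861239-5861488, plus strand.
Klf4: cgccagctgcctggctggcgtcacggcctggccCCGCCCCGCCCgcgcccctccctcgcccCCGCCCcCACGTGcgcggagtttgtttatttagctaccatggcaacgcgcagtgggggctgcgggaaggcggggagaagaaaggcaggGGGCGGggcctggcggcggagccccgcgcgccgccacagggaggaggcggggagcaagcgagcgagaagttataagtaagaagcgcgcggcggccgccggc
Klf6: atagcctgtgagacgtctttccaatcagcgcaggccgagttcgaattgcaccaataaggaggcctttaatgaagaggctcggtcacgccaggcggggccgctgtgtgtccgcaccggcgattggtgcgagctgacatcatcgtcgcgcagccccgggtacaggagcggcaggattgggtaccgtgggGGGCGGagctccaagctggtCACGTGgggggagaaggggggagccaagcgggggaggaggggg
Of the 10 factors, 8 matched the promoter table, and Klf5 and Klf10 did not. The E-box was found in 3 of the 8 (Klf4, Klf6 and Klf15) and in 6.02% of the 32851 promoters of the table. The GC box was found in 7 of the 8 and in 32.7% of all promoters, and CACCC, the box these factors bind, in 6 of the 8 and in 52% of all. TGACG, the core of the CRE, stood in 5 of the 8 and in 17.8% of all. TGANTCA, the AP-1 site, stood in Klf9 alone of the 8 and in 6.75% of all. A match describes the letters in this window and is no binding site.

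Klf5, a factor of proliferating epithelium that in the kidney is known from the collecting duct, rose as a large step from a low level. The Control arrays read −3.38, −4.12, −4.27 and −3.80, and the IRI arrays −0.78, −0.96, −0.70 and −0.15. The rise was 3.24 ± 0.24 (9.46-fold, adjusted p = 1.4e-08). It was called in all settings of the gene value that were run, but its size was 1.44 with normexp background correction and 1.91 with the mean of log2 over the 2 probes. Against Control the IPC+IRI value of 2.29 ± 0.24 was 0.74 with normexp, and 1.35 and no longer called with the deposited log2 table (adjusted p = 0.13). In contrast with Klf4, the protected groups stood below IRI. Klf5 read −1.85, −1.78, −1.84 and −1.45 in IRI+Hemin and −1.97, −1.22, −1.54 and −1.68 in IPC+IRI, and none of these 8 arrays reached the lowest IRI array. IRI+Hemin vs IRI gave a log2 fold change of −1.08 ± 0.24 (2.12-fold, adjusted p = 0.0014), and that of IPC+IRI vs IRI was −0.95 ± 0.24 (1.93-fold, adjusted p = 0.0037). Both calls were lost with the mean of log2 over the 2 probes (−0.10 and 0.15, adjusted p = 0.73 and 0.58) and without scaling between arrays (−0.72 and −0.63, adjusted p = 0.11 and 0.16), and that of IPC+IRI also with the deposited log2 table (−1.55, adjusted p = 0.094), which gave −3.09 (adjusted p = 0.0023) for IRI+Hemin. The mean of log2 gives equal weight to the dimmer probe, which was not well above background on any Control, IRI or Hemin array. Hemin alone read −3.45, −4.07, −3.07 and −3.99 and overlapped Control. The rise with IRI was 1.91 ± 0.24 in Hemin-treated kidneys (0.90 with normexp, −0.52 and not called with the deposited log2 table), and the difference of the 2 rises, the interaction, was −1.33 ± 0.34 (adjusted p = 0.021). It was −0.54 (adjusted p = 0.34) with normexp background correction, −0.09 (adjusted p = 0.89) with the mean of log2 over the 2 probes and −1.53 (adjusted p = 0.13) without scaling between arrays, and −3.42 (adjusted p = 0.049) with the deposited log2 table, so the call depends on these settings. Klf5 was the only one of the 10 factors called in the interaction, where 1.96% of the 19069 genes tested were called lower and 5.84% higher. The summed level of 5 collecting duct markers, in multiples of the 75th percentile, ran from 30.0 to 39.5 in Control, 37.3 to 53.2 in IRI, 42.4 to 55.9 in IRI+Hemin, 39.5 to 62.2 in IPC+IRI and 37.3 to 47.9 in Hemin, with all 5 markers well above background on every array. Of these, 1 was called higher and 2 lower in IRI vs Control, beside 17.1% and 33.9% of all genes tested. Their part in the Klf5 result was not tested. A sum of intensities, here and below, follows the brightest of its markers.

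Klf10, induced by TGF-beta and also called TIEG1, and Klf3, a repressor that recruits CtBP, followed the same order of groups among the injured kidneys as each other. Klf10 ran from 0.61 to 0.95 in Control, 2.37 to 3.35 in IRI, 1.92 to 2.77 in IRI+Hemin, 1.61 to 2.46 in IPC+IRI and 0.23 to 0.74 in Hemin. Klf3 ran from −1.21 to −0.26, 0.83 to 1.35, 0.31 to 0.72, −0.15 to 0.52 and −1.48 to −0.77 in the same groups. Both had their highest mean in IRI and their lowest in Hemin. Klf10 rose by 2.10 ± 0.22 after IRI (4.27-fold, adjusted p = 8.7e-07) and Klf3 by 1.72 ± 0.20 (3.29-fold, adjusted p = 2.7e-06). In IPC+IRI vs IRI the log2 fold changes were −0.82 ± 0.22 for Klf10 (adjusted p = 0.0065) and −0.92 ± 0.20 for Klf3 (adjusted p = 0.0016). In IRI+Hemin vs IRI they were −0.60 ± 0.22 and −0.54 ± 0.20 (adjusted p = 0.035 and 0.037). These last calls lay near the threshold. With 1 array left out the Klf3 value stayed between −0.63 and −0.46 and the Klf10 value between −0.77 and −0.45. The Klf3 adjusted p was between 0.052 and 0.10 without IRI replicate 2, 3 or 4 or IRI+Hemin replicate 2, 3 or 4, and that of Klf10 between 0.063 and 0.12 without IRI replicate 2 or 3 or IRI+Hemin replicate 2, 3 or 4. Without scaling between arrays none of the 4 calls held, with −0.50 for Klf10 and −0.60 for Klf3 in IPC+IRI vs IRI and −0.24 and −0.18 in IRI+Hemin vs IRI. With normexp the Klf10 adjusted p was 0.093 and 0.078 in these comparisons, and that of Klf3 in IRI+Hemin vs IRI 0.055. The deposited log2 table also ended the latter (−0.34, adjusted p = 0.26), and a fit of only the arrays compared ended that of Klf10 (adjusted p = 0.080). The Klf10 arrays of both protected groups overlapped those of IRI.

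Klf9, a glucocorticoid and thyroid hormone target, rose after IRI and stood higher still in the protected groups. It ran from 1.77 to 2.46 in Control, 3.27 to 3.56 in IRI+Hemin, 3.37 to 3.63 in IPC+IRI and 2.01 to 2.08 in Hemin, and IRI lay between, at 2.94 ± 0.11 (SD, n = 4). The IRI arrays overlapped neither Control nor the protected groups, and IRI+Hemin and IPC+IRI overlapped each other. The log2 fold change was 0.88 ± 0.12 in IRI vs Control (adjusted p = 1.7e-05), 0.52 ± 0.12 in IPC+IRI vs IRI (adjusted p = 0.0028) and 0.45 ± 0.12 in IRI+Hemin vs IRI (adjusted p = 0.0070). The extra rise came mostly from the dimmer of its 2 probes, with 0.97 ± 0.13 and 0.84 ± 0.13 against 0.29 ± 0.14 and 0.26 ± 0.14 on the brighter one, whose adjusted p was 0.090 and 0.12. With normexp the 2 differences were 0.78 and 0.82, and without scaling between arrays 0.83 and 0.81.

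Klf13, a factor first described in T cells, and Klf7, known from neurons, rose by about 2-fold. Klf13 ran from −0.83 to −0.12 in Control and from 0.35 to 0.66 in IRI, with 1.00 ± 0.16 between the means (2.00-fold, adjusted p = 7.9e-05). This mean follows the brighter of its 2 probes. The dimmer one fell, as described with the probe sequences, and the mean of log2 over both was −0.12 (adjusted p = 0.56), with 0.09 (adjusted p = 0.65) in place of 1.03 in IPC+IRI vs Control and 0.49 in place of 1.11 in IRI+Hemin vs Hemin. IPC+IRI (0.25 to 0.87) and IRI+Hemin (0.52 to 0.81) overlapped IRI. Klf7 ran from −0.06 to 0.11 in Control and 1.04 to 1.26 in IRI, a rise of 1.08 ± 0.11 (2.12-fold, adjusted p = 3.8e-07). In IPC+IRI it read 0.49, 0.95, 1.04 and 0.98, below IRI by a log2 fold change of −0.27 ± 0.11 (adjusted p = 0.048). That call was lost without IPC+IRI replicate 1 (adjusted p = 0.19), IRI replicate 2 (0.12) or IRI replicate 3 (0.10), and with the replicate number as a block (0.064). It was also lost with normexp, quantile normalization, the mean of log2 over probes, the deposited log2 table, no filter on dim genes and a fit of only the arrays compared, and turned to 0.047 without scaling between arrays. The dimmer Klf7 probe alone gave 0.02 ± 0.14 in the same comparison.

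Klf2, the flow-induced factor of endothelium, was the factor with the narrowest range of group means, 0.92. It read 4.78, 5.16, 4.82 and 4.37 in Control, 4.54, 4.90, 4.90 and 3.86 in IRI, and 4.89, 4.32, 4.38 and 4.44 in IPC+IRI. These 3 groups overlapped, with log2 fold changes against Control of −0.23 ± 0.26 for IRI (adjusted p = 0.49) and −0.27 ± 0.27 for IPC+IRI (adjusted p = 0.39). A p above the threshold does not show that the levels were equal. IRI+Hemin read 5.10, 5.67, 4.40 and 5.65, with replicate 3 well below the others, and Hemin read 4.35, 4.20, 4.13 and 4.48. Klf2 rose in IRI+Hemin vs Hemin by 0.92 ± 0.27 (1.89-fold, adjusted p = 0.0098), although the arrays overlapped. That call was lost with the mean of log2 over its 2 probes (0.58, adjusted p = 0.054), with the deposited log2 table (0.18, adjusted p = 0.86), with SAM and on the dimmer probe alone (0.14, adjusted p = 0.77). IRI+Hemin vs IRI gave 0.65 ± 0.26 (adjusted p = 0.052), which became 0.92 (adjusted p = 0.0054) without IRI+Hemin replicate 3, 0.77 (adjusted p = 0.039) without IRI replicate 2 and 0.77 (adjusted p = 0.041) without IRI replicate 3. It was also called with normexp (0.67, adjusted p = 0.030), without scaling between arrays (1.02, adjusted p = 0.00029), with quantile normalization (0.58, adjusted p = 0.040), the brightest probe (0.78, adjusted p = 0.037) and a stricter filter on dim genes (adjusted p = 0.048), whereas the dimmer probe alone gave −0.28 (adjusted p = 0.53). The interaction was 1.15 ± 0.38 (adjusted p = 0.070), 1.42 (adjusted p = 0.013) without IRI+Hemin replicate 3, 1.24 (adjusted p = 0.022) with quantile normalization, 1.38 (adjusted p = 0.050) with the brightest probe, where it was also called, and −0.036 with the deposited log2 table. The summed level of 6 endothelial markers ran from 13.1 to 16.6 in Control, 13.5 to 19.5 in IRI, 18.7 to 24.8 in IRI+Hemin, 8.88 to 23.7 in IPC+IRI and 14.7 to 22.3 in Hemin, all 6 being well above background on every array. In IRI+Hemin vs IRI, 2 of the 6 were called higher and 1 lower, with a median log2 fold change of −0.06. Of all genes tested there, 26.3% were called higher and 18.1% lower. The sum follows Emcn, the brightest of the 6, with means of 3.25 in IRI and 3.96 in IRI+Hemin. The part of the 6 markers in the Klf2 values was not tested.

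Klf15, which controls amino acid catabolism and is a podocyte differentiation factor, was the one factor that fell. It read 2.63, 2.50, 2.85 and 2.30 in Control and 1.96, 1.76, 1.39 and 0.92 in IRI. The log2 fold change was −1.06 ± 0.19 (2.09-fold, adjusted p = 0.00022), and the groups did not overlap, but SAM did not call it. IPC+IRI read 2.40, 2.11, 2.03 and 2.21, above every IRI array, and exceeded IRI by 0.68 ± 0.19 (1.60-fold, adjusted p = 0.0089). That call was lost with the mean of log2 over its 2 probes (0.34, adjusted p = 0.17) and with the deposited log2 table (0.60, adjusted p = 0.068). Against Control the IPC+IRI value of −0.38 ± 0.19 did not pass (adjusted p = 0.10), but Klf15 was called lower there with quantile normalization (−0.54, adjusted p = 0.020), with the mean of log2 over probes (−0.64, adjusted p = 0.0097) and on the dimmer probe alone (−0.96, adjusted p = 0.0022). IRI+Hemin read 1.90, 1.46, 1.68 and 1.87 and overlapped IRI, and it was lower than Hemin (2.22, 2.22, 2.30 and 2.79) by a log2 fold change of −0.66 ± 0.19 (adjusted p = 0.011), which normexp ended (−0.45, adjusted p = 0.077). The summed level of 5 podocyte markers ran from 3.55 to 5.70 in Control, 3.06 to 3.85 in IRI, 3.30 to 4.21 in IRI+Hemin, 2.89 to 3.74 in IPC+IRI and 3.86 to 4.83 in Hemin, with all 5 well above background on every array. In IRI vs Control, 2 of the 5 fell, among them Synpo by 0.54 on the log2 scale, and none rose. Of all genes tested there, 33.9% were called lower and 17.1% higher. The part of the podocyte markers in the Klf15 result was not tested.

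The promoters of the factor that fell and of the one that did not pass in IRI vs Control are given for comparison with those of Klf4 and Klf6, again as 250 bases before the RefSeq start (GRCm38.p6). In Klf15 (chr6:90462326-90462575, plus strand) capitals mark the E-box CACGTG, which occurs at 2 places. In Klf2 (chr8:72318812-72319061, plus strand) capitals mark the MEF2 site and the reverse of CACCC.
Klf15: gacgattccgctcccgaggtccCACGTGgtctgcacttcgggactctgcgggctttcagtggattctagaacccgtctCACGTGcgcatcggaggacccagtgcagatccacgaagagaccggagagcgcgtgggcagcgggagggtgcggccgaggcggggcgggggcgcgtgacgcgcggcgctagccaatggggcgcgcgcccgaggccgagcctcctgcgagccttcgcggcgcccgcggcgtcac
Klf2: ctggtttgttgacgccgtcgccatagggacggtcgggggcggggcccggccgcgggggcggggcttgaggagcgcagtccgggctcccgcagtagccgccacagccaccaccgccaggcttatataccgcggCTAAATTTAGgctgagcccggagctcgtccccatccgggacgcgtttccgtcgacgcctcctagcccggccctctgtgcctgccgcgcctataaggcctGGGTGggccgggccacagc
The MEF2 site, through which the ERK5 kinase (Mapk7) is known to act on Klf2, was found in Klf2 alone of the 8 promoters and in 0.508% of all. Among 6 genes of this route on the array, Mef2d rose by 1.20 after IRI (adjusted p = 3.9e-06), Map3k3 rose by 0.80 (adjusted p = 6.9e-05) and Mef2c fell by 0.96 (adjusted p = 0.0038), and the other 3 did not pass. The median of the 6 was 0.31, against −0.17 over all genes tested, of which 17.1% were called higher and 33.9% lower.

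Setting the comparisons beside each other, the count of factors called was largest between injured and uninjured kidneys. IPC+IRI vs Control gave 8 higher and none lower, with 23.2% of 18360 genes called higher and 32.8% lower, and the 8 did not overlap Control, beside 17.7% and 27.4% of all genes. IRI+Hemin vs Hemin gave 9 higher and 1 lower (16.5% and 27.9% of 18635 genes), of which all but Klf2 did not overlap (17.1% and 27.6% of all genes). Between injured groups the counts were mixed. In IPC+IRI vs IRI, Klf4, Klf9 and Klf15 were higher and Klf3, Klf5, Klf7 and Klf10 lower, beside 26.3% of 17677 genes called higher and 17.8% lower. In IRI+Hemin vs IRI, Klf4 and Klf9 were higher and Klf3, Klf5 and Klf10 lower, beside 26.3% of 17838 genes called higher and 18.1% lower. The factors not overlapping were 3 higher and 3 lower in IPC+IRI vs IRI (22.2% and 15.7% of all genes) and 2 higher and 3 lower in IRI+Hemin vs IRI (23.4% and 15.5%). In both comparisons the 3 lower ones were Klf3, Klf5 and Klf7, while Klf10 overlapped. Klf7 was not called in IRI+Hemin vs IRI. Without scaling between arrays, the lower calls against IRI went to 0 in both protected groups, and IRI vs Control and IPC+IRI vs Control kept 8 higher. Hemin vs Control gave Klf4 alone, beside 18.5% of 18583 genes called higher and 17.6% lower, and the log2 fold changes of the 9 others ran from −0.49 to 0.25. The 3 comparisons with Control share its arrays, as the comparisons of the protected groups with IRI share the IRI arrays.

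**Figure D2:**
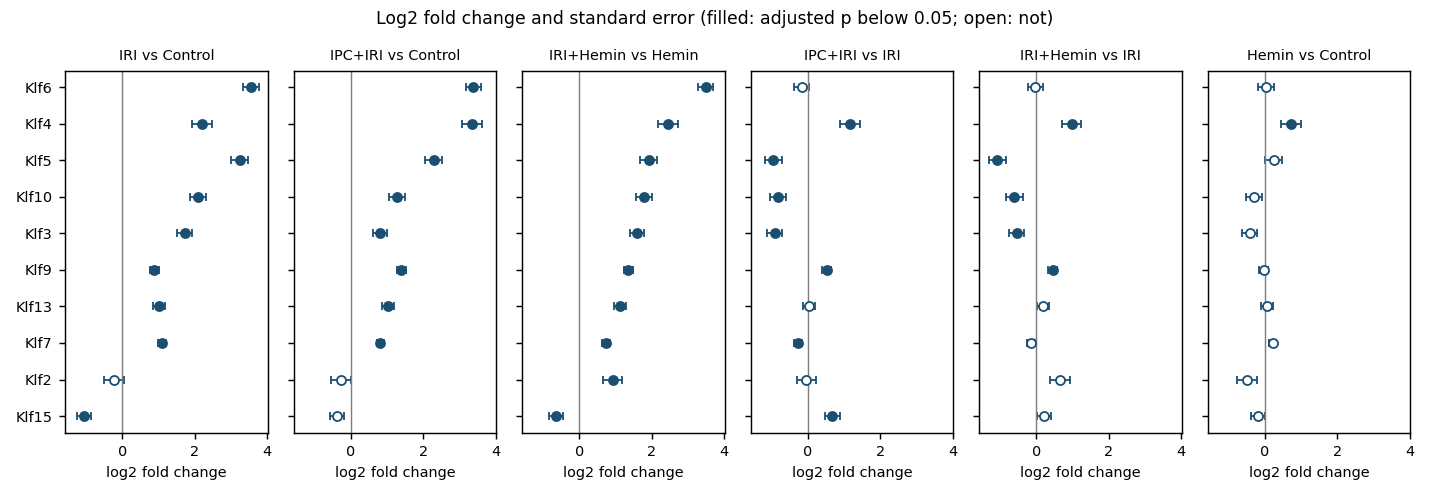
Log2 fold change (x axis) with its standard error for each factor (y axis) in 6 comparisons of 4 against 4 arrays, filled where the adjusted p is below 0.05. Klf6 stands above 3 in the 3 panels that set injured against uninjured kidneys and near 0 in the other 3, and Klf4 and Klf5 lie on opposite sides of 0 where a protected group is set against IRI.

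Of the 10 factors, 8 have 2 probes and Klf4 and Klf10 have 1. No spot of the 18 probes was removed as an outlier or saturated. In IRI vs Control both probes of 7 genes could be tested, of which 5 were called in the same direction with both probes and 1, Klf13, in opposite directions. In IPC+IRI vs IRI both probes were called the same way in 1 of 8 genes and in IRI+Hemin vs IRI in 0 of 7, so most calls of the protected groups against IRI were not made by both probes. The 2 Klf13 probes are shown because their sequences say what each reads. Both lie on chromosome 7 (mm9, minus strand), the brighter over chr7:71036629-71082857 and the dimmer over chr7:71036675-71069606, so each 60-base probe crosses at least one intron. Capitals mark the 10 bases they share.
Klf13 brighter: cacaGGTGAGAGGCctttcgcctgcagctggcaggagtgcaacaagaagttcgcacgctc
Klf13 dimmer: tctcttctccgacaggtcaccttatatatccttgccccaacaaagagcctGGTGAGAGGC
The shared run ends the dimmer probe and begins after base 4 of the brighter one, and the lower ends of the probes lie 46 bases apart on the chromosome, so both enter the same exon at the same place. The dimmer probe carries 50 bases from another exon upstream, and the brighter probe carries 56 bases of the shared exon. On the brighter probe the Control arrays read 0.52, 0.22, 0.76 and 0.05 and the IRI arrays 1.32, 1.64, 1.41 and 1.64. On the dimmer probe they read −2.47, −3.03, −2.80 and −3.47 in Control and −4.53, −4.15, −4.05 and −4.43 in IRI. The probe of the shared exon was higher in every IRI array and the probe of the other upstream exon lower in every one, by 1.11 ± 0.17 (adjusted p = 3.4e-05) and −1.35 ± 0.21 (adjusted p = 5.5e-05) on the log2 scale in a fit of single probes, in which 17.7% of 25959 probes were called higher and 30.9% lower. The dimmer probe was well above background on all Control arrays and on 3 of 4 IRI arrays. It was also lower in IPC+IRI vs Control (−0.96 ± 0.21, adjusted p = 0.0010), higher in IRI+Hemin vs IRI (0.86 ± 0.21, adjusted p = 0.0033), and called in the interaction (1.16 ± 0.30, adjusted p = 0.025). Of all single probes, 24.5% were called higher and 31.9% lower in IPC+IRI vs Control, 26.8% and 20.1% in IRI+Hemin vs IRI, and 6.1% and 2.07% in the interaction.

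The Klf5 probes also read different sequence. The brighter one runs from chr14:99702656-99712388 (mm9, plus strand) across an intron, and the dimmer one, chr14:99704137-99704196, lies inside the stretch that the brighter one skips.
Klf5 brighter: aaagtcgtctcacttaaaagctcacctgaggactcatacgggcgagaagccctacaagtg
Klf5 dimmer: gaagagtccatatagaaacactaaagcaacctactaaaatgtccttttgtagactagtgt
The brighter probe carries the rise with IRI (3.34 ± 0.25). The dimmer probe was not well above background on any Control, IRI or Hemin array, was so on 1 of 4 IRI+Hemin arrays and on 3 of 4 IPC+IRI arrays, and was not tested in IRI vs Control. In IPC+IRI it read −4.46, −4.50, −4.49 and −5.96, against −6.68, −5.99, −6.48 and −5.53 in IRI. This is at least 2.05-fold higher, with the lowest signal well above background as the floor of each IRI array (adjusted p = 0.0023). The dimmer probe passed the filter through IPC+IRI alone, so this p does not support a difference between the probes. The brighter probe was lower by a log2 fold change of −1.02 ± 0.25 in the same comparison, where 26.6% of all single probes were called higher and 20% lower. On Klf2 the 2 probes gave −0.36 ± 0.29 and 0.56 ± 0.34 in IRI vs Control, neither called, and the dimmer one was called lower in IPC+IRI vs IRI (−1.17 ± 0.34, adjusted p = 0.0094). Both Klf15 probes fell after IRI, by 1.08 and 0.89 on the log2 scale, but the dimmer one stayed low in IPC+IRI, with −0.07 ± 0.24 against IRI where the brighter one gave 0.75 ± 0.20.

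**Figure D3:**
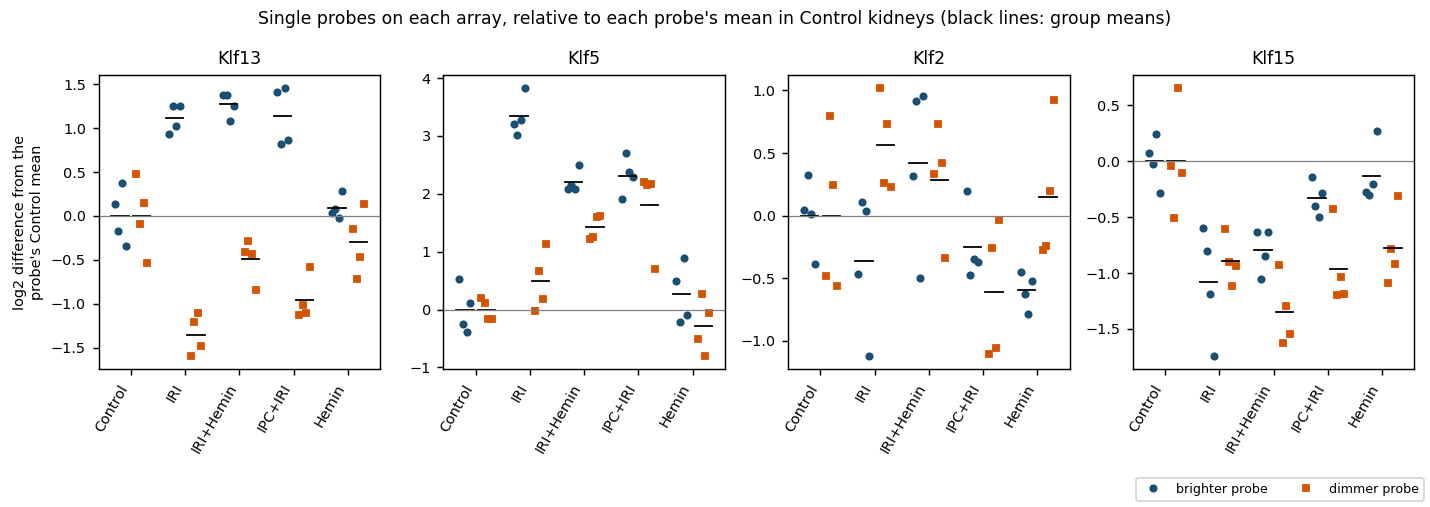
Log2 difference of each array from the probe's own mean over the Control arrays (y axis) for the brighter (circles) and dimmer (squares) probe of Klf13, Klf5, Klf2 and Klf15, by group (x axis, 4 arrays each, black lines for group means). The Klf13 probes move in opposite directions in IRI, and the dimmer Klf5 probe, not well above background in Control, IRI and Hemin, is highest in IPC+IRI.

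Among 17 other KLF and SP genes on a list of the family, 15 were on the array and 13 could be tested. In IRI vs Control 3 of the 13 rose and 4 fell, with a median of −0.03, beside 17.1% of all genes tested called higher and 33.9% lower. Klf11, the TGF-beta-induced relative of Klf10, rose by 1.38 ± 0.17 (adjusted p = 4.8e-06), Sp2 by 1.51 ± 0.42 (adjusted p = 0.0057) and Sp3 by 0.61 ± 0.14 (adjusted p = 0.0017). The repressors Klf12 and Klf8 fell by 0.56 and 0.74 on the log2 scale, Sp6 by 0.99 and Klf17 by 1.13, and 2 of the 4 IRI arrays had Klf8 well above background. Klf8 passed the filter through Control alone and adds no support to the count of 4. Klf11 resembled Klf10 in being lower in IPC+IRI vs IRI (−0.58 ± 0.17) and in IRI+Hemin vs IRI (−0.78 ± 0.17). Sp4 and Sp1, which did not pass in IRI vs Control (−0.20 and 0.18), were higher than IRI in IPC+IRI, by 1.50 ± 0.22 and 0.65 ± 0.15, and in IRI+Hemin, by 1.46 ± 0.22 and 0.54 ± 0.15. Klf1, the erythroid factor, was lower in both (−1.07 ± 0.21 and −0.88 ± 0.21), as were Sp2 (−1.93 ± 0.42 and −1.30 ± 0.42) and Klf17 (−1.08 ± 0.33 and −2.19 ± 0.33). Klf16 was higher in IPC+IRI (0.51 ± 0.16), and Sp5 (−0.54 ± 0.18) and Sp7 (−1.82 ± 0.26) were lower in IRI+Hemin, where Klf17 was well above background on 1 of 4 arrays and Sp7 also on 1. In IRI+Hemin vs IRI both Klf17 and Sp7 passed the filter through IRI alone, so their values there do not support a fall.

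**Figure D4:**
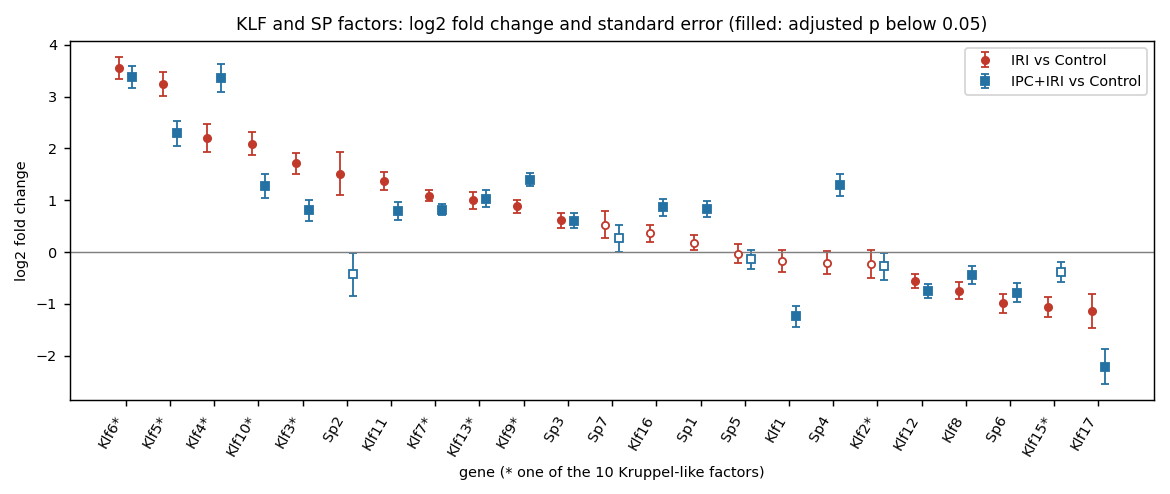
Log2 fold change (y axis) with its standard error of 23 KLF and SP genes (x axis, asterisk for the 10 factors) in IRI vs Control (circles) and IPC+IRI vs Control (squares), filled where the adjusted p is below 0.05, ordered by IRI vs Control. The 5 genes at the left, Klf6, Klf5, Klf4, Klf10 and Klf3, are all of the 10, and Klf2 and Klf15 lie in the right part.

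Genes that these factors act on, or that share their inducers, were counted from lists. Of all genes tested, 17.1% were called higher and 33.9% lower in IRI vs Control, and 23.2% and 32.8% in IPC+IRI vs Control. These shares were 26.3% and 17.8% in IPC+IRI vs IRI, 26.3% and 18.1% in IRI+Hemin vs IRI, and 16.5% and 27.9% in IRI+Hemin vs Hemin. Of 9 genes of endothelium known to follow Klf2 and Klf4, 6 rose after IRI and 1 fell, with a median of 2.01 (−0.17 over all genes). Thrombomodulin (Thbd) rose by 2.42 (adjusted p = 5.9e-06), S1pr1 by 2.32 and Nos3 by 2.01, whose products oppose clotting and leukocyte adhesion, as did the vasoconstrictor Edn1 (2.19) and the adhesion molecule Vcam1 (1.99), which Klf2 is known to repress. Sele was not well above background on any Control array and was so on 3 IRI arrays, at least 5.57-fold higher (adjusted p = 0.0011), but it passed the filter through IRI alone and adds no support to the count of 6. The receptor Tek fell by 0.97. In IPC+IRI vs IRI 5 of the 9 were lower and none higher, and Sele again passed the filter through IRI alone. Of the 6 endothelial markers, 3 were lower in that comparison and none higher, with a median of −0.78. Their part in these counts was not tested. All 5 measured glucocorticoid-induced genes rose after IRI, among them Sgk1 (2.18, adjusted p = 0.00025) and Dusp1 (1.69, adjusted p = 0.00011), and in IRI+Hemin vs Hemin all 5 were higher as well. In IPC+IRI vs Control 3 of the 5 were higher. Against IRI, where Klf9 was called higher in both protected groups, none of the 5 was higher, and 1 was lower in IPC+IRI and 2 in IRI+Hemin. The 7 genes of amino acid catabolism and podocytes linked to Klf15 gave 1 higher and 2 lower in IRI vs Control, with Tat, the first enzyme of tyrosine breakdown, fallen by 1.58 (adjusted p = 0.00072) and Gpt risen by 0.89 (adjusted p = 6.6e-05), and a median of −0.24 (−0.17 over all genes). Of 7 TGF-beta genes around Klf10 and Klf6, 5 rose, among them Smad3 (1.23, adjusted p = 5.5e-05), and in IPC+IRI vs IRI 4 were lower and none higher. Among 4 cell cycle genes, 3 could be tested, and Cdkn1a, the p21 inhibitor that Klf4 and Klf6 are known to induce, rose by 5.21 (adjusted p = 4.8e-10) and Ccnd1 fell by 0.54 (adjusted p = 0.039). Of the 10 co-regulators of the family, Sap30 alone was called in IRI vs Control (−0.86, adjusted p = 0.0023), whereas 7 were lower in IRI+Hemin vs IRI, among them Ep300, Hdac2 and Sap30 (−1.64, −1.78 and −1.92). Nphs1, Podxl and Synpo stand both in the Klf15 list and among the podocyte markers, and no list is independent of the earlier results of these arrays.

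Markers of other cells moved with the groups too, and their part in any value above was not tested. The summed level of 8 leukocyte markers ran from 2.70 to 4.58 in Control, 5.27 to 11.5 in IRI, 6.83 to 15.8 in IRI+Hemin, 10.9 to 38.1 in IPC+IRI and 3.32 to 5.39 in Hemin. In IRI vs Control 3 of 7 tested rose, S100a8 by 4.05, S100a9 by 3.68 and Cd68 by 2.23, and Cd79a fell. Of all genes tested, 17.1% were called higher and 33.9% lower. On Control arrays Itgam and S100a8 were each well above background on 2 of 4, and Cd79a was so on 1 of 4 IRI arrays. S100a8 passed the filter through IRI alone and Cd79a through Control alone, so neither adds support to these counts. The leukocyte sum follows its brightest markers, Lyz2 and S100a9, while Ptprc had means of −2.87 in Control and −2.86 in IRI. The 6 proximal tubule markers summed to between 407 and 450 in Control and between 299 and 420 in IRI, with Lrp2 and Cubn fallen by 0.95 and 0.54. The 4 markers of thick limb and distal tubule gave no call in IRI vs Control and summed to between 235 and 302 in Control and between 229 and 294 in IRI. Smooth muscle and mesangial markers, 4 in all, summed to between 9.73 and 11.2 in Control and between 13.2 and 16.7 in IRI, with Tagln (0.86) and Acta2 (0.54) higher. All tubule and smooth muscle markers were well above background on every array.

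The genes whose pattern over the 20 arrays was most like that of the 3 widest-ranging factors were sought among 12556 other genes well above background on every array, by the root mean square difference of the values after each gene's mean was removed. For Klf6 they were Ifrd1, Mt2 and Epha2, at 0.30, 0.37 and 0.38, where the median gene lay at 1.80. For Klf4 they were Hectd2, Bcl3 and Tiparp, at 0.44, 0.44 and 0.46 (median 1.45). For Klf5 they were Csf1, Kcne4 and Slc38a2, at 0.37, 0.38 and 0.39 (median 1.38). Among the 10 factors themselves the closest pairs were Klf9 and Klf13 at 0.23, Klf7 and Klf13 at 0.30, and Klf3 and Klf10 at 0.34. These distances describe arrays that share slides and depth within each group.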

How the data were processed

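Total kidney RNA on 20 Agilent one-colour arrays was compared over 5 groups of 4 arrays, assigned from the sample labels. Per the file headers, the deposited intensity values were background-subtracted and detrended within each array by Agilent Feature Extraction 9.5.3.1, with no scaling between arrays, and probe positions are on mm9. The authors also deposited a log2 table, whose values matched the log2 of those intensities within 0.001 in 100% of its filled cells and of which 18.1% was blank. It served as an alternative, in which the mean over a gene's probes left out blank cells.

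Control spots and flagged outlier spots (0.208%) were left out, the mean was taken over the spots of a probe and then over the probes of a gene, and values were scaled to the 75th percentile of their array before the log2. A gene was tested when it was well above background on at least 3 of 4 arrays of either group compared. One limma fit (version 3.58.1, R 4.3.3) over all 20 arrays gave the moderated tests, adjusted by Benjamini-Hochberg over all genes tested and called below 0.05 with no fold cutoff. The number of arrays limits the precision. The steps were tested on simulated data. The members and lists were chosen with earlier results of these data known. The text names all members, all tested KLF and SP genes, the 2 genes of each further list with the largest called change in IRI vs Control, and the 3 nearest genes of the 3 widest-ranging factors. Further list members and markers were named after their values were seen, and some genes of the lists are not reported here. Alternatives covered background correction, scaling, probe summary, spot flags, dim genes, the arrays fitted, the replicate block, SAM, fold cutoffs and each array left out. The fold cutoffs followed the study for IRI vs Control (3 up, 2 down), IPC+IRI vs Control (4 up, 2 down), IPC+IRI vs IRI and Hemin vs Control (3). For IRI+Hemin against IRI or Hemin a cutoff of 3 both ways was set here. Settings with a single probe of a gene were added after seeing the data. Promoters are from RefSeq.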

Additional observations from a re-analysis of the deposited data

Results flagged for a closer look

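In 4 of the 50 groups of 4 arrays, formed by 10 factors in 5 groups, 1 array stood far from the other 3, where chance alone gives about 1 in 20. Klf4 read 1.24 on Control replicate 2, against 0.39 to 0.54 on the others, and 4.54 on IRI+Hemin replicate 4, against 3.52 to 3.66. Klf7 read 0.49 on IPC+IRI replicate 1, against 0.95 to 1.04. Klf15 read 2.79 on Hemin replicate 4, against 2.22 to 2.30. The rise of Klf5 with IRI differed between Hemin-treated and untreated kidneys by −1.33 on the log2 scale in the interaction term of the limma fit (adjusted p = 0.021).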

How the results depend on the processing

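The 8 factors called higher in IRI vs Control and in IPC+IRI vs Control were 5 and 3 with the fold cutoffs, and SAM gave 4 in IPC+IRI vs Control and 0 lower in IRI vs Control. In IRI vs Control the higher calls of Klf9 and Klf13 were also lost with SAM, and that of Klf13 with the mean of log2 over probes. Both SAM and the fold cutoffs left 0 higher and 0 lower in both protected groups against IRI (IPC+IRI vs IRI, and likewise IRI+Hemin vs IRI, where Klf5, 2.12-fold lower, would pass a cutoff of 2 down), 0 higher in Hemin vs Control and 0 lower in IRI+Hemin vs Hemin, where the fold cutoffs left 5 higher. Without normalization between arrays, the lower calls went to 0 in IPC+IRI vs IRI, in the interaction and in IRI+Hemin vs IRI, whereas 4 were higher in Hemin vs Control. With normexp, IPC+IRI vs IRI gave 2 lower, IRI+Hemin vs IRI 4 higher and 1 lower, and IRI+Hemin vs Hemin and the interaction 0 lower. The mean of log2 over probes gave 0 higher in Hemin vs Control, 7 higher and 1 lower (Klf15) in IPC+IRI vs Control, 2 higher and 2 lower in IPC+IRI vs IRI and 0 lower in the interaction. The deposited log2 matrix gave 0 higher in Hemin vs Control, 6 higher in IPC+IRI vs Control, and 2 higher and 1 lower in IPC+IRI vs IRI, with 1 lower also in IRI+Hemin vs IRI. Hemin vs Control had 0 higher with no filter on dim genes, and 1 lower with quantile normalization or only the arrays compared. Quantile normalization also gave 1 lower (Klf15) in IPC+IRI vs Control and 1 higher in the interaction, where the brightest probe gave 1 higher and 2 lower. Leaving out each array in turn gave 0 to 1 higher and 0 to 1 lower in Hemin vs Control, 2 to 3 higher and 1 to 3 lower in IRI+Hemin vs IRI, 3 to 4 lower in IPC+IRI vs IRI, and 0 to 1 higher in the interaction.

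Directions turned as follows, as log2 fold changes. With the mean of log2 over probes, Klf2 was 0.10 and Klf13 −0.12 in IRI vs Control, Klf5 0.15 in IPC+IRI vs IRI and Klf6 0.10 in IRI+Hemin vs IRI. With the deposited matrix, Klf2 was 0.22 in IRI vs Control, 1.37 in IPC+IRI vs Control and −0.036 in the interaction, Klf6 0.23 in IPC+IRI vs IRI and 0.45 in IRI+Hemin vs IRI, and Klf5 −0.52 in IRI+Hemin vs Hemin. In that matrix a gene's mean was taken over the probes not blank on each array. Its value can therefore rest on different probes on different arrays. The single probes themselves gave −0.25 and −0.61 for Klf2 in IPC+IRI vs Control. The brighter Klf5 probe gave 1.94 in IRI+Hemin vs Hemin. Without normalization, Klf2 was 0.16 and Klf15 0.056 in IPC+IRI vs Control, Klf6 0.15 and Klf7 0.047 in IPC+IRI vs IRI, and Klf6 0.34 in IRI+Hemin vs IRI. With normexp, Klf6 was 0.11 in IPC+IRI vs IRI and 0.31 in IRI+Hemin vs IRI, where leaving out 1 array gave −0.22 to 0.14. The dimmer probe alone gave Klf2 0.56 and Klf13 −1.35 in IRI vs Control, Klf13 −0.96 in IPC+IRI vs Control, Klf15 −0.068, Klf7 0.017 and Klf5 1.32 in IPC+IRI vs IRI (not well above background on any IRI array, so only the bound of 2.05-fold holds), Klf2 −0.28 and Klf6 0.42 in IRI+Hemin vs IRI, Klf13 −0.19 in IRI+Hemin vs Hemin and Klf2 −0.43 in the interaction. The cause was not tested. Over the settings of the fold changes called or printed with a value of their own, 976 kept direction and side of the threshold, 111 lost the call, 16 gained one and 30 turned direction.

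Same-numbered arrays of different groups did not deviate together (correlations −0.38 to 0.21 over 40 pairs, median −0.03), so the numbers do not pair the arrays. With the replicate block Hemin vs Control had 0 higher (Klf4 0.72, adjusted p = 0.064 in limma), and Klf7 lost its call in IPC+IRI vs IRI (−0.27, adjusted p = 0.064), which left 3 lower. It ended no other call of the factors. Slide as a block could not be fitted. Over the settings run, the genes called of all tested ran from 2972 (SAM) to 9346 (no filter) in IRI vs Control, 2256 to 13201 in IPC+IRI vs Control, 518 to 8965 in IPC+IRI vs IRI, 673 to 10370 in IRI+Hemin vs IRI, 309 to 9314 in Hemin vs Control, 837 to 8697 in IRI+Hemin vs Hemin and 146 to 1533 in the interaction.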
